A study of Mus musculus with 1778 samples.

Results

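Matrix genes were followed in single cells sorted from mouse embryos between 4 and 10 somites, when cranial neural crest cells leave the neural folds. The set holds every gene of the table whose symbol names a collagen chain, a laminin chain, a glypican or a syndecan, together with 14 other matrix genes given by name. It has 79 members of 24920 genes: 44 collagen chains, 11 laminin chains, 6 glypicans, 4 syndecans, and Fn1, Tnc, Vcan, Nid1, Nid2, Hspg2, Agrn, Sparc, Lum, Dcn, Fbn1, Fbn2, Tgfbi and Emilin1. The rule reads names and no measured value, but it was set with earlier results of these data known. Every embryo carried Wnt1::Cre and Rosa26TdTomato on a C57BL/6 background, so all groups share a Cre driven by the Wnt1 promoter and a Cre-dependent red reporter, and cells without Cre were not analysed here. Cells labelled as cranial neural crest were collected at 4, 6, 8 and 10 somites, sorted singly and read by Smart-Seq2, a full-length method without molecular identifiers. Of 1778 cells 1728 were kept, of which 12.73% were at 4, 48.3% at 6, 13.1% at 8 and 25.8% at 10 somites. Since cells cannot be traced to embryos, every stage is treated as a single pool. No test between stages or classes was therefore made, a 2-fold difference is a size and not a test, and intervals cover counting error only.

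The extracellular matrix of the early head has a sheet-like and an interstitial form. Basement membranes are thin sheets under epithelia and around vessels, built from laminin trimers and collagen IV, joined by nidogens and carrying heparan sulfate proteoglycans such as perlecan and agrin. The interstitial matrix between mesenchymal cells holds fibrillar collagens, fibronectin, versican and fibrillins. Glypicans and syndecans are heparan sulfate proteoglycans of the cell surface that bind growth factors. Cranial neural crest cells cross a basement membrane, migrate through this matrix and later make much of the connective tissue of the face.

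Levels are given as RPM, the reads of a gene in the summed cells of a group scaled to 1000000 reads on genes, with spike-ins and the ribosomal RNA gene Rn45s left out of the total. Kept cells had a median of 387020 such reads, from 10736 to 1007751, and Rn45s took between 44.4% and 59.2% of the reads on genes by stage. The cells came from 8 plate numbers that form 12 stage-by-plate pools, and stages share a plate number in 3 cases: 1 plate held 4 and 6 somites, 1 held 4 and 8, and 1 held 6, 8 and 10. Cells with at least 10 RPM of Sox10, Kdr or Tbx1 alone were called positive for that gene. Sox10-positive cells were 33.3% of kept cells, and 55 cells were Kdr-positive and 44 Tbx1-positive. Another 17.53% were positive for several of the 3 genes and entered no comparison between classes, and 43.5% were positive for none and are called other cells. Most cells that reached 10 RPM of Kdr were positive for several genes, mainly with Sox10 among them, and so were most that reached it for Tbx1. The 55 and 44 cells are thus a minority of the cells with Kdr or Tbx1, and results for these classes do not cover the rest. Most cells that reached the limit for Sox10 stayed in the Sox10-positive class. The limit is a choice along a range: 25 cells had 5 to 10 RPM of Sox10 and 21 had 10 to 20 RPM, with 37 and 34 cells for Kdr and 27 and 34 for Tbx1. Marker lists of crest, endothelium and head mesoderm include the class genes Sox10, Kdr and Tbx1, so part of each count and sum was fixed by the limit. In Sox10-positive cells 8 of 8 neural crest markers had at least 5 RPM, summing to 1439.8 RPM against 46.1 RPM in other cells. The median cell of the Sox10-positive class had 345.7 RPM of Sox10 itself. Kdr-positive cells had 10 of 10 endothelial markers, summing to 2278 RPM against 3.34 RPM. Tbx1-positive cells had 7 of 7 head mesoderm markers, summing to 652.05 RPM, and also surface ectoderm markers summing to 1058 RPM. Endoderm markers summed to 238.1 RPM there against 97.8 RPM in other cells, and parietal endoderm markers to 284.1 against 93.2 RPM, so that class was mixed. Other cells went against the sample label, with few crest markers and 598.001 RPM of surface ectoderm markers, against 227.1 RPM in Sox10-positive cells. Neuroepithelial markers summed to 328.3 RPM in other cells but were not particular to them. They summed to 211.6 RPM in Sox10-positive, 212.004 in Kdr-positive and 232.5 in Tbx1-positive cells. Sox10-positive cells made up 10.0% of cells at 4 somites, 19.4% at 6, 52.9% at 8 and 60.8% at 10. In the sum of a stage, more Sox10-positive cells and more RNA per cell cannot be told apart, so stages were also compared within classes.

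Of the 79 members, 33 reached 20 RPM at some stage, 10 more reached 5 RPM, and 36 stayed below 5 RPM at every stage. Those at 20 RPM or more were 10 of 44 collagens, 5 of 11 laminins, 4 of 6 glypicans, 4 of 4 syndecans and 10 of 14 others. Of the 36, 7 reached 5 RPM in at least 1 class (Col4a6, Col6a1, Col6a2, Col12a1, Col13a1, Dcn and Tnc), 29 did not, and Col6a6 had no read in any kept cell. Per kilobase of exon, the scale on which genes can be compared with each other, Gpc3 was highest over all kept cells at 119.4 RPM per kb. It was followed by Sdc1 at 43.8, Sparc at 35.04, Gpc1 at 34.8, Emilin1 at 29.9 and Nid2 at 26.4 RPM per kb, so cell-surface proteoglycans took 3 of the first 4 places. The summed level of all members was 1910.0 RPM at 4, 2069 at 6, 3033 at 8 and 3011 RPM at 10 somites.

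**Figure D1:**
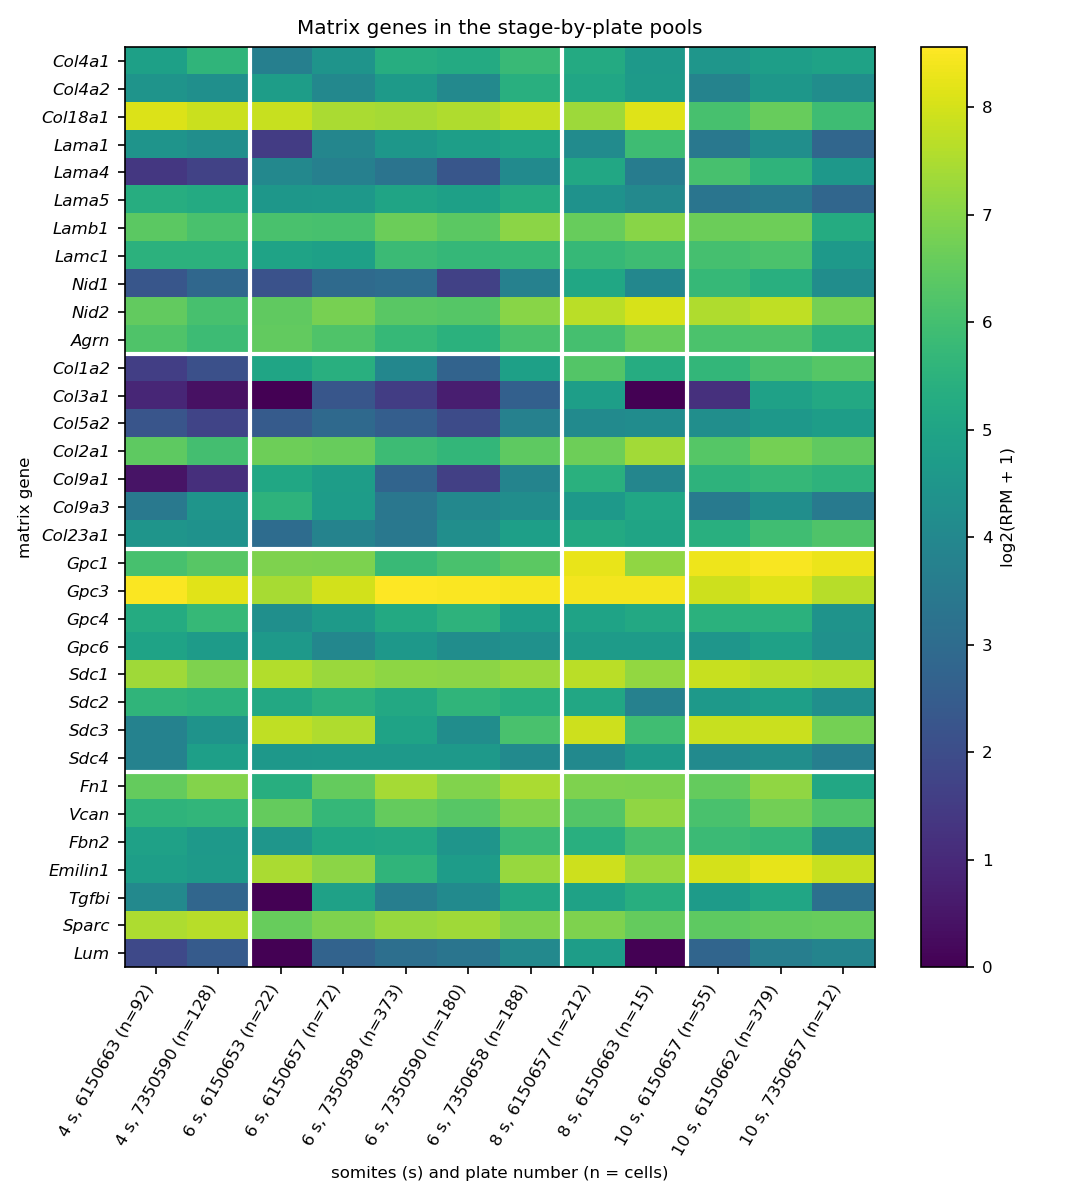
Colour gives log2(RPM + 1) of the 33 matrix genes with at least 20 RPM at some stage (rows, by role) in the 12 stage-by-plate pools (columns). Emilin1, Sdc3, Gpc1 and Nid2 are brighter in the pools of 10 than of 4 somites, Col18a1 and Lama5 are darker there, and Sdc3 also differs among the plates of 6 somites.

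The stretches before the start sites of 5 members are shown because these genes stood far apart between Sox10-positive and other cells: Emilin1, Sdc3 and Col1a2 were higher and Sparc and Lama5 lower. They are the 250 bases before the RefSeq start on GRCm38.p6, read 5′ to 3′ on the gene's strand, and capitals mark the motifs that were found. RefSeq starts differ from the GENCODE bounds of a gene given with its values: the windows of Emilin1, Col1a2 and Sparc lie inside the GENCODE gene, and those of Sdc3 and Lama5 end at its start.
Emilin1, chr5:30913536-30913785, plus strand: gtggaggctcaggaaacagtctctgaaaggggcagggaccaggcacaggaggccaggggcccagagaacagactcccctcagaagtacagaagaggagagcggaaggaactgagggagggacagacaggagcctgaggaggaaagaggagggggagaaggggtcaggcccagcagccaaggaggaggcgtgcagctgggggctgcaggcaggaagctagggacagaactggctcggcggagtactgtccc
Sdc3, chr4:130792287-130792536, plus strand: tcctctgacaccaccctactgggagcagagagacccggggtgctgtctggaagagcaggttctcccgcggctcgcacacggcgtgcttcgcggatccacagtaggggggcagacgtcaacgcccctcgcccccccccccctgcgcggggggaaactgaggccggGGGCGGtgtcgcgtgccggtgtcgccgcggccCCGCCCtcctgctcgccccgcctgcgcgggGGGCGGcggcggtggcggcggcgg
Col1a2, chr6:4505368-4505617, plus strand: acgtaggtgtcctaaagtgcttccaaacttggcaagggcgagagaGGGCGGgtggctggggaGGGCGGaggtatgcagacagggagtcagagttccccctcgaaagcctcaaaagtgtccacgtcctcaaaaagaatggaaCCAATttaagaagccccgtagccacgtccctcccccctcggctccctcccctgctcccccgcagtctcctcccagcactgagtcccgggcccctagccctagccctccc
Sparc, chr11:55420081-55420330, minus strand: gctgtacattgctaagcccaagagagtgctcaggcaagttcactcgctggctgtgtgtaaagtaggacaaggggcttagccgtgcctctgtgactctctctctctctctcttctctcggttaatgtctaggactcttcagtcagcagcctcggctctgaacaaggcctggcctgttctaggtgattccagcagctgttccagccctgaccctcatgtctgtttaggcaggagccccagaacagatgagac
Lama5, chr2:180225860-180226109, minus strand: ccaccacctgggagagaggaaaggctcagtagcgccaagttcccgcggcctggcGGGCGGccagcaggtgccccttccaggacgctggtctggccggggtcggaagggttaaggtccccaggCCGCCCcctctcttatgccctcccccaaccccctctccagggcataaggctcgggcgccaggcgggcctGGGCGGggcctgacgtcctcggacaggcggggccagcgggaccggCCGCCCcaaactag

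Letters were searched for 4 short motifs on both strands, none of which contains another. The GC box GGGCGG stood in 64.5% of the 62 windows at hand, which cover 56 of the 79 members, and in 32.7% of all 32851 windows. The CCAAT box was in 30.6% of the members' windows and 33.8% of all. The TATAAA string was in 12.9% and 12.4%. The ACAAAG string, a core of the sites that Sox proteins bind, was in 11.3% and 16.5%. Among the 5 stretches printed, Sdc3 held 3 GC boxes, Col1a2 held 2 and a CCAAT box, Lama5 held 4 hits, and Emilin1 and Sparc held none of the 4 motifs. These are matches of letters and not measured sites.

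Between the first and last stage, Emilin1, Sdc3, Gpc1, Lama4, both nidogens and several collagens were higher at 10 somites and Col18a1, Lama5 and Sparc were lower. Of 39 members with a mean of at least 5 RPM over both stages, 18 had a log2 ratio of 1 or more and 3 had -1 or less, and the median over the 39 was 0.64. Counted in the same way over all 9811 genes, 5.33% lay 2-fold above and 5.44% 2-fold below. The 18 were 8 of 13 counted collagens, 7 of 12 other matrix genes, and Lama4, Gpc1 and Sdc3, which were 1 of 4 counted glypicans and 1 of 4 syndecans. No plate was shared by 4 and 10 somites, so stage and plate cannot be told apart in the pooled ratio. Ratios were therefore also chained within plates, by way of 6 somites (6 over 4, then 10 over 6) and by way of 8 (8 over 4, then 10 over 8). Of the 18, 16 kept their sign by way of 6 and 12 of these stayed 2-fold, and 15 kept it by way of 8, 13 of them 2-fold, with no minimum RPM set along the chains. The chains reuse part of the cells that gave the 18, so they are no independent check. The share of all 2-fold genes that kept their sign along the chains is not given. The links were counted too: 21 of 42 members were higher and 3 lower at 8 than at 4 somites on their shared plate, against 9.25% and 7.01% of all genes, with 15 cells at 8 somites. At 10 against 6 somites 7 of 38 were higher and 5 lower, against 5.85% and 5.1% of all genes.

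Emilin1 (chr5:30913402-30921277, plus strand, GENCODE vM21 on GRCm38), which codes for an elastin-associated glycoprotein, had 26.6 and 24.2 RPM in the pools of 4 somites and 258.9, 303.998 and 226.8 RPM in those of 10. The pools did not overlap, and the pooled log2 ratio was 3.55 (95% interval 3.49 to 3.60). Here and below, pools being apart rests on 2 pools of 4 and 3 pools of 10 somites. The share of all genes whose pools are apart is not given, so it is a description and not a result about the members. The chains gave 1.04 by way of 6 and 2.61 by way of 8 somites. Pools of 6 somites already spread from 25.7 to 176.3 RPM.

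Sdc3 (chr4:130792537-130826319, plus strand), the syndecan of the nervous system, had 12.9 and 20.3 RPM at 4 somites and 226.1, 235.5 and 107.1 RPM at 10. Its pools were apart and its log2 ratio was 3.69, but by way of 6 somites it was 0.05. On the plate that held 6, 8 and 10 somites Sdc3 stood at 186.1, 239.01 and 226.1 RPM, so it was already high at 6 somites there. Sox10-positive cells were 26 of the 72 cells of that pool.

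Gpc1 (chr1:92831645-92860779, plus strand), a glypican, went from 66.1 and 80.3 RPM to 324.6, 356.6 and 316.1 RPM, with no overlap and a log2 ratio of 2.21. Along the chains the ratio was 1.24 and 1.15. On the plate with 3 stages the difference lay between 6 and 8 somites, at 116.7, 307.8 and 324.6 RPM. Of its exon bases 18.9% overlap Ankmy1 on the opposite strand, which had few reads. The other cell-surface proteoglycans changed less: Gpc3 had 315.1 RPM at 4 and 270.1 at 10 somites, Sdc1 133.7 and 207.8, Sdc2 44.96 and 26.3, and Gpc4 46.7 and 42.4 RPM, none of them 2-fold. The pools of Gpc3, Sdc1 and Sdc2 were apart as well.

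Nid1 and Nid2 code for the nidogens that link laminin to collagen IV. Nid1 had 3.87 and 6.22 RPM at 4 somites and 51.7, 41.7 and 17.3 RPM at 10, a log2 ratio of 2.97, with 1.38 and 2.54 along the chains. Nid2 had 90.6 and 66.3 RPM and 183.9, 214.3 and 107.7 RPM, a ratio of 1.45, with 0.96 and 1.38. The stages did not overlap for either gene. Of the exon bases of Nid2 8.45% lie in exons of Rtraf on the opposite strand, and whether reads were counted by strand is not known. Rtraf stood at 361.6 RPM at 4 and 360.99 RPM at 10 somites.

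Lama4 (chr10:38965515-39110188, plus strand), the laminin alpha chain of vessels and mesenchyme, had 1.59 and 2.26 RPM at 4 somites and 66.8, 46.4 and 22.73 RPM at 10. Its log2 ratio was 4.59, and the chains gave 3.23 and 3.78. In other cells alone it stood at 0.601 and 0.381 RPM. Lama5 (chr2:180176373-180225859, minus strand), the alpha chain most typical of epithelial basement membranes, took the opposite course, from 39.7 and 36.3 RPM to 8.95, 10.54 and 6.09 RPM. Its log2 ratio was -1.90, with -1.71 and -2.51 along the chains, and its pools were apart. The common chains were between these: Lamb1 had 73.02 and 98.2 RPM, Lamc1 44.6 and 66.98, and Lama1 18.71 and 16.01 RPM at 4 and 10 somites, none of them 2-fold.

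Col18a1 (chr10:77052178-77166548, minus strand), a basement membrane collagen whose cleavage releases endostatin, had 272.1 and 235.4 RPM at 4 somites and 65.8, 93.97 and 58.6 RPM at 10. Its log2 ratio of -1.50 was -1.76 and -1.20 within plates. Sparc (chr11:55394500-55423183, minus strand), a collagen-binding matricellular protein, had 182.8 and 198.1 RPM and 86.5, 91.4 and 95.1 RPM, a ratio of -1.09, with -0.75 and -1.46 along the chains. With Rn45s kept in the total the ratio of Sparc was -0.94. For both genes the pools of the stages were apart.

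Col1a2, Col9a1 and Col5a2 were low at 4 somites. Col1a2 (chr6:4504814-4541544, plus strand), a chain of collagen I, had 2.04 and 3.25 RPM at 4 somites and 50.01, 68.3 and 77.1 RPM at 10, a log2 ratio of 4.53, with 1.08 and 3.621 along the chains. Col9a1, a chain of collagen IX, had 0.366 and 1.21 RPM and 44.8, 51.4 and 45.6 RPM, a ratio of 5.77, with 1.56 and 5.33. Col5a2, a chain of collagen V, which starts collagen fibrils, had 3.736 and 2.40 RPM and 17.8, 22.741 and 26.5 RPM, a ratio of 2.94, with 1.68 and 2.31. For these 3 collagens the stages did not overlap. Col2a1, the main collagen of cartilage, was not 2-fold apart, at 71.2 and 101.9 RPM.

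Col3a1, another fibrillar collagen, did not keep its direction within plates. It had 0.888 and 0.298 RPM at 4 somites and 1.29, 28.8 and 34.9 RPM at 10, where the low pool is on the plate that gave 27.1 RPM at 8 somites. The pooled log2 ratio of 5.57 became -0.49 by way of 6 and -5.54 by way of 8 somites. Lum, a small leucine-rich proteoglycan of collagen fibrils, was 1.498 pooled, 1.09 by way of 6 and -4.89 by way of 8 somites. The pools of 4 and 10 somites were nevertheless apart for both Col3a1 and Lum. The chains by way of 8 pass through a pool of 15 cells in which both genes had 0 reads, so these values are bounds set at 3 reads.

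**Figure D2:**
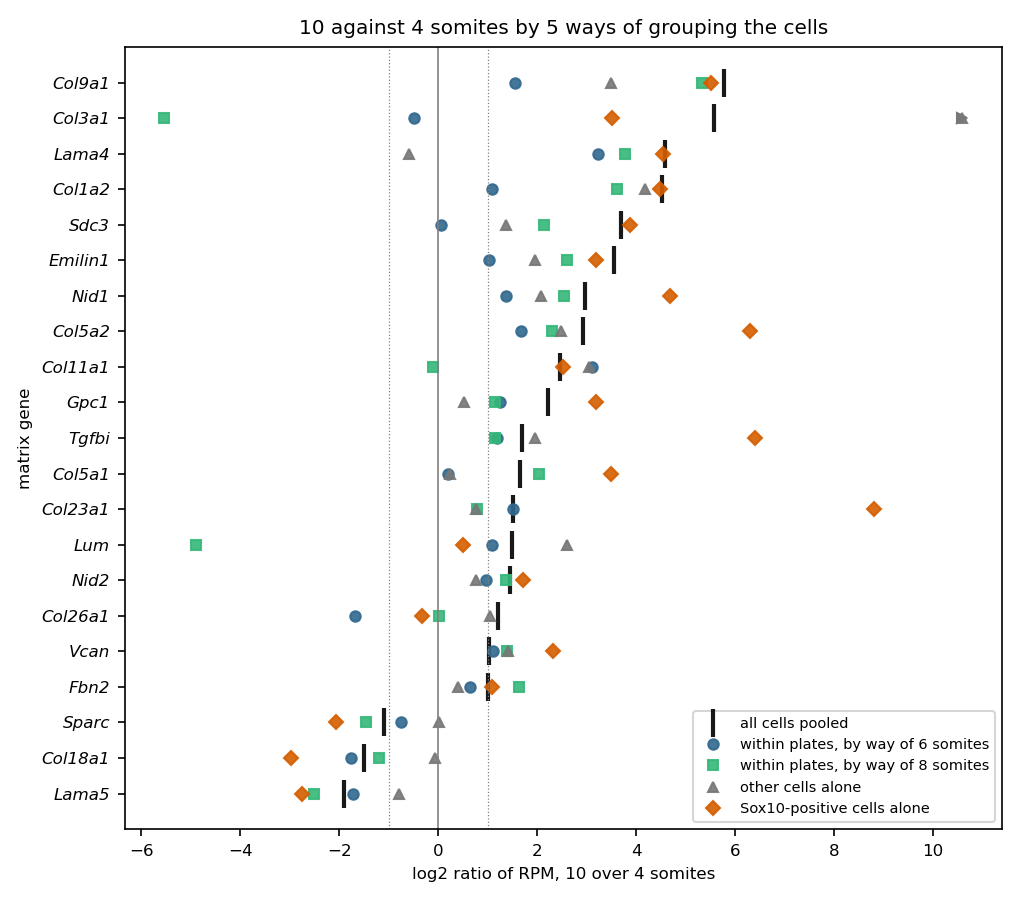
Each row is 1 of the 21 matrix genes that differed at least 2-fold between 10 and 4 somites, and the x axis is the log2 ratio of RPM with dotted lines at 2-fold. Marks give all cells pooled, chains within plates by way of 6 or 8 somites, other cells alone and Sox10-positive cells alone, and a group at 0 reads was set at 3 reads. Col18a1 and Sparc lie at -0.07 and 0.01 in other cells and at -2.97 and -2.07 in Sox10-positive cells.

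Step by step within plates, 2-fold higher members were counted mostly between 6 and 8 somites and 2-fold lower ones between 8 and 10. From 4 to 6 somites 2 of 30 counted members were higher, against 1.8% of all genes, and 0 lower, against 1.11%. The 2 were Tgfbi, at 6.17 and 16.2 RPM, and Lum, at 4.43 and 8.98 RPM. Among members at 20 RPM or more Vcan had a log2 ratio of 0.73 and Lama1 of 0.58 in this step, and Gpc6 of -0.53 and Col9a3 of -0.49. From 6 to 8 somites on the plate with 3 stages 9 of 40 were higher, against 3.39% of all genes, and 0 lower, against 1.85%. The 9 were Col3a1, Nid1, Lum, Lama4, Col23a1, Gpc1, Col5a2, Col5a1 and Col4a2. Sox10-positive cells were 26 of 72 cells at 6 somites on that plate, and their share was larger at 8 somites. From 6 to 8 somites there, neural crest markers went from 955.003 to 1113.4 RPM. Markers of red blood cells went from 1189.1 to 154.2 RPM. What this change in make-up adds to the step from 6 to 8 somites was not tested. From 8 to 10 somites on the same plate 0 of 39 were higher, against 1.19% of all genes, and 8 lower, against 2.46%. These were Col3a1 at -4.37, Lum at -2.12, Col26a1 at -1.41, Col4a2 at -1.31, Col18a1 at -1.25, Col9a3 at -1.20, Lama5 at -1.14 and Gpc2 at -1.08. Lama4 had the largest ratio of the step among members at 20 RPM, 0.98, from 33.8 to 66.8 RPM. Between these 2 pools head mesoderm markers went from 115.8 to 38.4 RPM, other cells from 48 to 5 and Tbx1-positive cells from 4 to 0, with 55 cells in the pool of 10 somites. The part of this make-up in the step was not tested.

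Sox10-positive cells, the crest class, had far more Lama4, Emilin1, Sdc3, Col1a2 and Col9a1 than other cells and less Col18a1, Sparc and Lama1. Of 37 counted members 14 were 2-fold higher and 8 2-fold lower, with a median log2 ratio of 0.29, against 3.48% and 7.08% of all 9786 genes. The higher members were Lama4, Emilin1, Col9a1, Col1a2, Sdc3, Nid1, Col5a2, Gpc1, Col23a1, Nid2, Col11a1, Tgfbi, Col5a1 and Col9a3. The lower ones were Col18a1, Sparc, Lama1, Col3a1, Lama5, Lum, Gpc3 and Col4a1. For Col3a1 and Lum the level in other cells rested on few cells. A single cell gave 24.1% of the Col3a1 reads and 18.9% of the Lum reads of that class. Cells with at least 10 RPM of Col3a1 were 6.26% of Sox10-positive and 1.46% of other cells. For Lum these shares were 4.87% and 4.13%, and both genes had pools of both signs. With TMM scaling 5 were lower in place of 8, and Gpc3 and Col4a1 stood at -0.93 and -0.92. Because Sox10-positive cells were mostly late and other cells mostly early, the contrast was also taken inside the 7 stage-by-plate pools with at least 10 cells of both. There 7 of the 14 were higher in every pool and 5 of the 8 lower in every pool. The share of all 2-fold genes that kept their direction in every pool is not given, so these counts do not set the members apart from other genes.

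Lama4 had 46.1 against 0.606 RPM in Sox10-positive and other cells, a log2 ratio of 6.25 (6.04 to 6.47). In the 7 pools its ratio ran from 4.47 to 7.96, and in 3 of them other cells had 0 reads, so the value is a bound. Emilin1 had 255.1 against 11.8 RPM, a ratio of 4.44, and from 1.33 to 5.21 in the pools. Both were thus 2-fold higher in 7 of 7 pools. Sdc3 had 242.6 against 18.3 RPM, a ratio of 3.73, Col1a2 74.3 against 5.50 RPM, a ratio of 3.75, and Col9a1 48.2 against 3.02 RPM, a ratio of 3.997. These 3 were 2-fold higher in 6 of 7 pools, with lowest ratios of 0.68, 0.86 and 0.88 in the same pool of 6 somites, which had 12 Sox10-positive cells. Nid2 was higher in every pool, between 0.34 and 1.77, and Nid1 in 6 of 7.

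Other pooled contrasts came from the later pools. Gpc1 had 327.3 against 80.1 RPM, a log2 ratio of 2.03. Inside pools it was below 0 in 3 of 7, with -0.66 at 4 somites and -0.16 and -0.47 in 2 pools of 6 somites, against 1.59 at 8 and 1.99 at 10 somites. Col23a1, a transmembrane collagen, had 39.2 against 10.3 RPM but was lower in 5 of 7 pools, -5.64 at 4 somites against 1.99 at 8 and 1.81 at 10. Tgfbi, Col5a1 and Col5a2 also had pools of both signs.

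Col18a1, Sparc, Lama1, Gpc3, Fn1, Col4a1, Col4a5 and Col4a6 were lower in the Sox10-positive cells of all 7 pools, and Col4a2 in 6 of 7. Col4a1 ran from -2.04 to -0.17, and Col4a5 and Col4a6 reached only 6.60 and 4.84 RPM at their highest stage. Basement membrane genes did not all go this way: Nid2 and Lama4 lay above 0 in 7 of 7 pools, Nid1 and Lamb1 in 6 of 7 and Lamc1 in 5 of 7. Col18a1 had 68.4 against 252.6 RPM, a log2 ratio of -1.88, and lay below 0 in 7 of 7 pools, from -0.68 at 4 somites to -3.79 at 10. Sparc had 59.9 against 174.1 RPM, a ratio of -1.54, with -0.25 to -2.81 in the pools. Lama1, the alpha chain of the earliest basement membranes, had 7.04 against 19.3 RPM and was lower in 7 of 7 pools. Lama5 had 14.61 against 37.7 RPM, a ratio of -1.37, was lower in 6 of 7 pools and stood at 0.41 in 1 pool of 6 somites. Gpc3 (chrX:52272426-52613950, minus strand) had 182.7 against 373.96 RPM, with pool ratios between -0.56 and -1.70. Fn1, fibronectin, was not 2-fold lower, at 71.8 against 93.6 RPM, and lay below 0 in 7 of 7 pools.

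**Figure D3:**
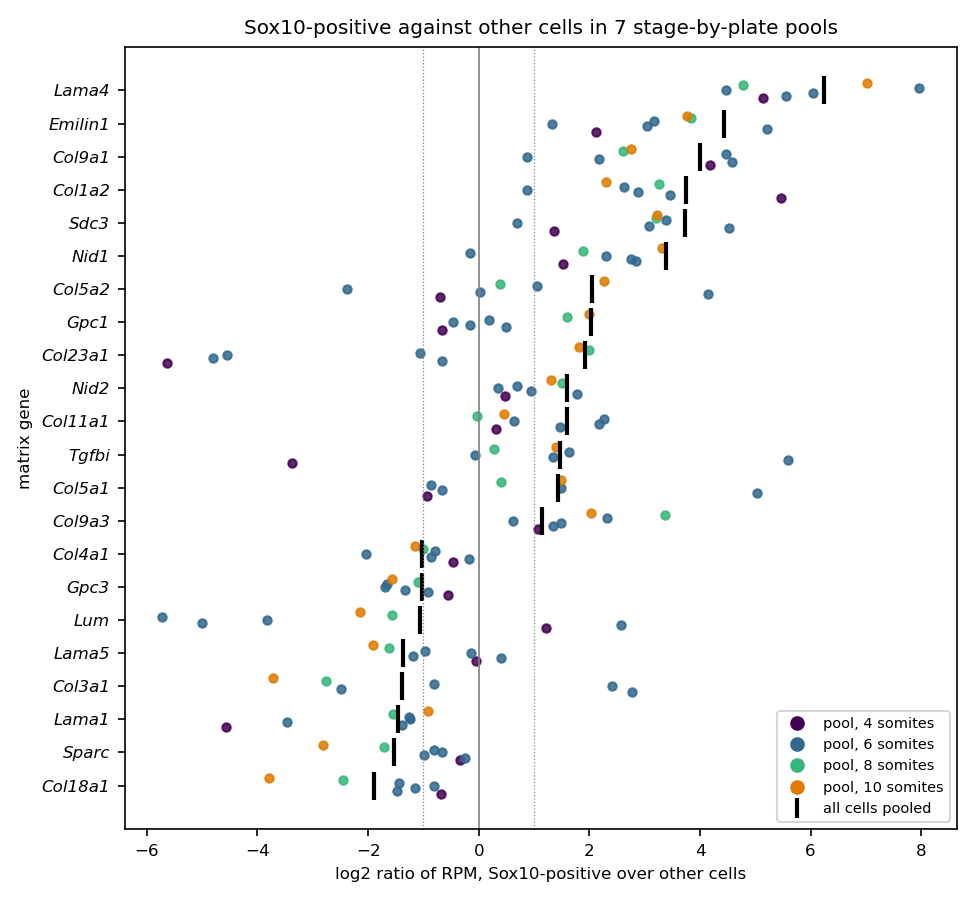
Rows are the 22 matrix genes that differed at least 2-fold between Sox10-positive and other cells, and the x axis is the log2 ratio of RPM. Points are the 7 stage-by-plate pools coloured by stage, black marks are all cells pooled, dotted lines mark 2-fold, and points with 0 reads on 1 side are bounds. Lama4 and Emilin1 lie beyond 2-fold in all 7 pools, Col18a1 and Sparc lie below 0 in all 7 and farthest out at 10 somites, and Gpc1 and Col23a1 have pools on both sides of 0.

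Inside the Sox10-positive class 3 genes were lower at each later stage. Col18a1 stood at 190.1, 119.4, 76.8 and 24.3 RPM at 4, 6, 8 and 10 somites, Sparc at 157.9, 88.5, 55.3 and 37.6 RPM and Lama5 at 48.4, 23.5, 13.3 and 7.21 RPM. The class had 22 cells at 4 somites, and the stages pool different plates. On the plate with 3 stages, Lama5 was 2-fold lower in this class from 6 to 8 somites. Col18a1 and Sparc were not among the 2-fold lower members in that step, and none of the 3 genes was from 8 to 10. In other cells Col18a1 was 271.8, 227.9, 352.1 and 258.2 RPM, Sparc 197.2, 160.8, 167.8 and 198.4 RPM and Lama5 41.5, 37.5, 40.3 and 23.8 RPM, without such an order. Inside pools the log2 ratio between the classes was -0.33 for Sparc and -0.04 for Lama5 at 4 somites and -2.81 and -1.92 at 10.

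Other genes went up in the class. Emilin1 was 36.9, 119.3, 274.3 and 338.1 RPM in Sox10-positive cells and 7.96, 9.82, 19.5 and 30.8 RPM in other cells at the 4 stages in order. Sdc3 was 18.4, 149.03, 315.6 and 272.9 RPM and 17.1, 12.65, 35.97 and 44.1 RPM. Inside the pool of 4 somites with at least 10 cells of both classes the log2 ratio of Sdc3 was 1.36. Gpc1 was 48.6, 87.4, 394.6 and 444.4 RPM and 78.4, 68.2, 135.01 and 112.8 RPM. These 3 genes stood higher at 8 and 10 than at 4 somites in the Sox10-positive cells, with different plates pooled at the stages. On the plate with 3 stages, Gpc1 was 2-fold higher in the class from 6 to 8 somites, and Emilin1 and Sdc3 were not. Col23a1 was 0.0926, 3.89, 38.3 and 62.5 RPM in Sox10-positive cells, and its value at 4 somites is 1 read.

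Within Sox10-positive cells 17 of 35 counted members were 2-fold higher and 5 2-fold lower at 10 than at 4 somites, against 8.91% and 8.78% of all genes. Within other cells 11 of 36 were higher and 1 lower, against 8.04% and 2.82%. Against 6 somites, the counts at 10 were 11 of 35 higher and 3 lower in Sox10-positive cells, against 2.56% and 4.23% of all genes, and 10 of 35 higher and 1 lower in other cells, against 5.93% and 2.44%. Of the 18 members higher at 10 than at 4 somites over all cells, 16 were 2-fold higher in Sox10-positive and 12 in other cells when the 5 RPM minimum was not asked within the class, and of the 3 lower members 3 and 0 were 2-fold lower. Whether the classes differ in these counts was not tested.

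On the plate with 3 stages, a restriction added after the values were seen, Sox10-positive cells had 136.99 RPM of Gpc1 at 6 and 413.2 RPM at 8 somites. Lama4 went from 18.05 to 51.01 RPM and Col23a1 from 5.19 to 40.5 RPM. Of 40 members counted there 10 were higher and 3 lower at 8 somites, against 4.86% and 3.57% of all genes. From 8 to 10 somites 1 of 37 was higher, Nid1, from 22.55 to 53.6 RPM, against 2.76% of all genes. Col9a3 and Gpc2 were lower, 2 of 37 against 2.92%. More members thus passed 2-fold in the earlier step, in a class of 26 cells at 6 and 28 at 10 somites on that plate.

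**Figure D4:**
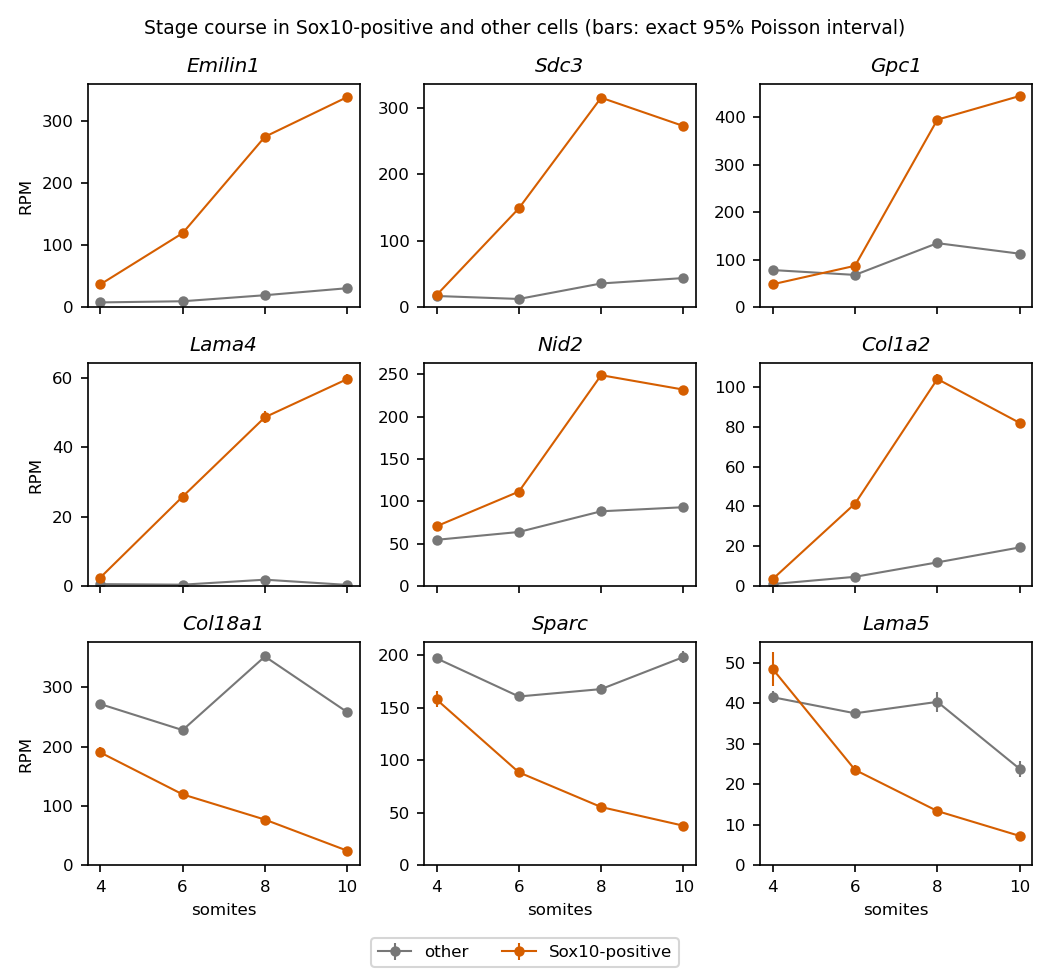
Each panel gives RPM of 1 matrix gene (y axis, from 0) at 4, 6, 8 and 10 somites (x axis) in Sox10-positive and other cells, with exact 95% Poisson intervals as bars. Emilin1, Sdc3 and Gpc1 are higher at 8 and 10 than at 4 somites in Sox10-positive cells, while Col18a1, Sparc and Lama5 are lower at each later stage there. The plates pooled differ between stages.

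Kdr-positive cells, which carried endothelial markers, were high in Col4a1, Col4a2, Lamb1, Lama1, Hspg2 and Nid1, and lower in Lama5 and Agrn. They also had 415.5 RPM of parietal endoderm markers against 93.2 RPM in other cells, and 142.8 against 28.04 RPM of head mesoderm markers. The median over the 55 cells was 0 RPM for 4 of the 10 endothelial markers, Pecam1, Cdh5, Tie1 and Cldn5. The part of these markers in the results was not tested. Of 38 counted members 18 were 2-fold higher than in other cells and 4 lower, with a median log2 ratio of 0.86, against 8.73% and 6.44% of all 9990 genes. In the 2 pools with at least 10 cells of both classes, both at 6 somites, 18 of 18 kept their direction above 0 and 4 of 4 below. In every class contrast the pools are part of the cells that gave the list, here 16 and 12 of the 55, so they are no independent check. No share of all genes stands beside the counts over pools in any class contrast. Col4a1 and Col4a2, the chains of the main collagen IV trimer, had 131.9 against 34.8 RPM and 90.5 against 19.57 RPM, ratios of 1.92 and 2.21. Lamb1 had 240.7 against 70.1 RPM, Lama1 56.02 against 19.3 RPM, and Hspg2, which codes for perlecan, 39.8 against 8.22 RPM. Nid1 had 66.6 against 2.43 RPM, a ratio of 4.77, with 5.22 and 2.87 in the pools. Lama4 had 36.05 against 0.606 RPM, a ratio of 5.89. Lama5 and Gpc4, a glypican, were lower, at 10.59 against 37.7 RPM and 13.2 against 43.9 RPM. Col18a1 was not 2-fold apart, at 224.4 against 252.6 RPM, with 0.41 and -1.27 in the pools.

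Among other members, Kdr-positive cells had 455.1 against 93.6 RPM of Fn1, a log2 ratio of 2.28, with 2.29 and 2.42 in the pools. Emilin1 had 333.4 against 11.8 RPM, a ratio of 4.82, with 4.90 and 5.98, and Tgfbi, an integrin-binding matrix protein, 63.6 against 6.56 RPM. Agrn, which codes for agrin, was lower at 30.2 against 61.3 RPM, a ratio of -1.02 that was -0.96 with TMM scaling and -0.86 without 1 plate of 6 somites. Sparc was higher by less than 2-fold, at 321.8 against 174.1 RPM. The Sox10 and Kdr contrasts share the other cells as reference, and Lama4 and Emilin1 are high in both. Set side by side, Sox10-positive and Kdr-positive cells had 46.1 and 36.05 RPM of Lama4, 255.1 and 333.4 RPM of Emilin1, 17.2 and 131.9 RPM of Col4a1, and 327.3 and 57.3 RPM of Gpc1.

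Tbx1-positive cells were high in interstitial collagens, Lum, Vcan and Fn1, and also in basement membrane genes. Of 44 counted members 27 were 2-fold higher than in other cells and 2 lower, Lama5 and Col9a3, with a median log2 ratio of 1.53, against 5.66% and 4.47% of all 9952 genes. The 27 included 16 of 18 counted collagens. Some of these, among them Col1a1, Col6a1, Col6a2 and Col13a1, passed the 5 RPM minimum only through the Tbx1-positive cells. They could only count as higher, so the count of collagens was partly fixed by the minimum. Lum had 162.8 against 8.85 RPM, Col3a1 126.8 against 9.739 RPM, and Col26a1, a collagen with an EMI domain, 49.3 against 2.81 RPM. Vcan, the large hyaluronan-binding proteoglycan of loose mesenchyme, had 295.3 against 58.9 RPM, Fn1 364.4 against 93.6 RPM and Fbn2, a fibrillin, 98.6 against 22.4 RPM. Gpc3 was just short of 2-fold, at 732.4 against 373.96 RPM.

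These values rested on few cells and differed between pools. Of the Lum reads of the 44 cells 1 cell gave 26.4% and 3 cells gave 66.7%, and 1 cell gave 66.2% of the Col6a1 reads. In the 2 pools with at least 10 cells of both classes 18 of the 27 were higher in both. In the pool of 6 somites, with 11 Tbx1-positive cells, the log2 ratios of Fn1, Fbn1 and Emilin1 were -0.14, -1.02 and -1.001. In the pool of 10 somites, with 12 cells, they were 2.34, 3.93 and 2.97. Lum at 3.56 and 3.78, Col3a1 at 4.65 and 2.83 and Col5a2 at 3.81 and 4.12 were high in both. The part of the surface ectoderm markers, 1058 RPM in this class and 598.001 RPM in other cells, was not tested. Nor was that of the endoderm and parietal endoderm markers.

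**Figure D5:**
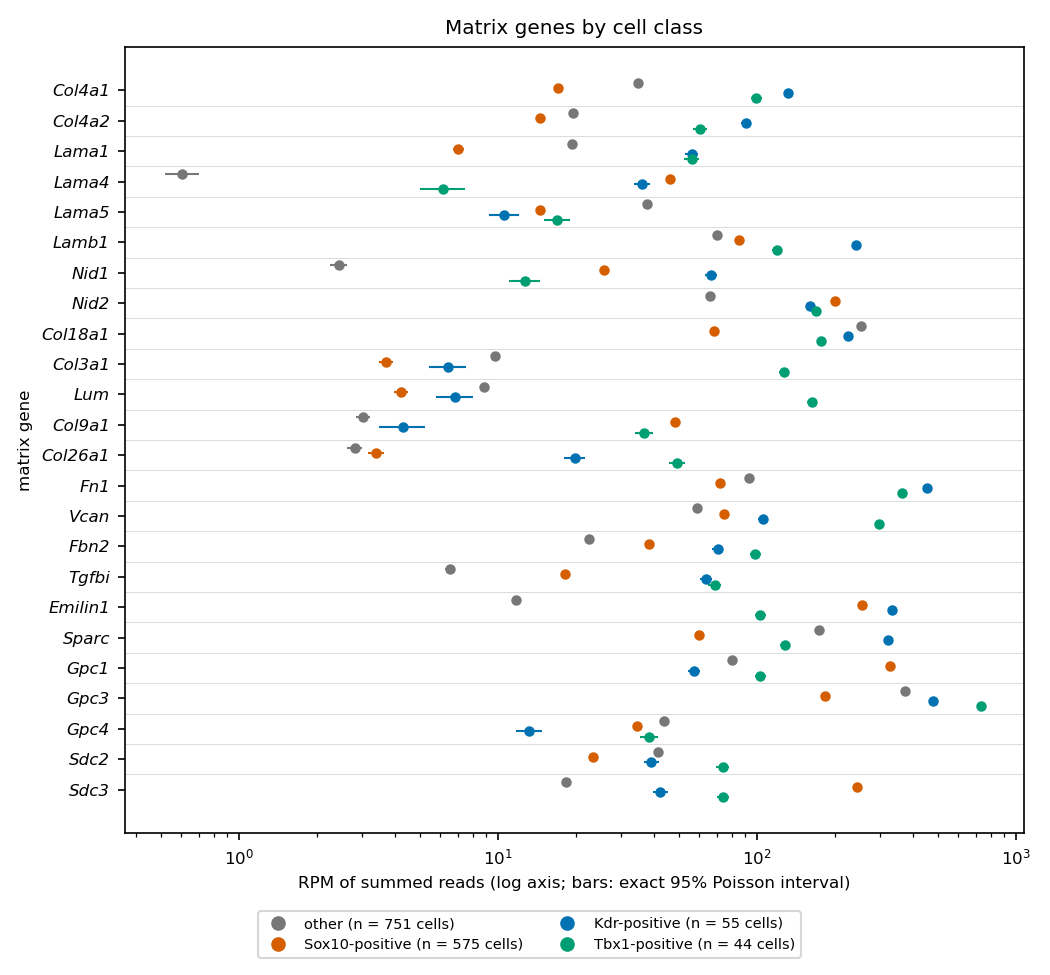
RPM of 24 matrix genes (log x axis) in other, Sox10-positive, Kdr-positive and Tbx1-positive cells, with exact 95% Poisson intervals as bars. Of the 4 classes Sox10-positive cells are highest for Gpc1 and Sdc3 and lowest for Col4a1 and Sparc, Kdr-positive cells are highest for Col4a1, Lamb1 and Nid1, and Tbx1-positive cells for Lum, Col3a1 and Vcan.

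Partner and related chains did not always keep the same level. Col4a1 and Col4a2 lie head to head on chromosome 8 of GRCm38, with starts at 11312826 and 11312805, 21 bases apart. Per kilobase the level of Col4a1 was 1.91 times that of Col4a2 at 4 somites, 1.43 at 6, 0.98 at 8 and 1.15 at 10. Of Kdr-positive cells with a Col4a1 read 72.97% also had a Col4a2 read, against 44.4% of those without, and in Sox10-positive cells 37.6% against 23.9%. Lamb1 and Lamc1, the beta and gamma chains of common laminins, stood between 1.19 to 1 in other cells and 2.92 to 1 in Kdr-positive cells. Lama1 and Lama5 code for alternative alpha chains, and Lama1 was 0.57 times Lama5 per kilobase in Sox10-positive and 0.60 times in other cells, but 6.22 times in Kdr-positive and 3.89 times in Tbx1-positive cells. Nid1 and Nid2 code for separate proteins, and Nid1 stayed below Nid2, from 0.03 times in other cells to 0.31 times in Kdr-positive cells.

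The chains of collagen I were uneven in the crest class. Col1a1, whose product joins that of Col1a2 in the collagen I trimer, had 0.663 RPM in Sox10-positive cells where Col1a2 had 74.3 RPM, and per kilobase 0.02 times as much. In Kdr-positive, Tbx1-positive and other cells the ratio per kilobase was 0.74, 0.58 and 0.56. By stage it was 1.04, 0.21, 0.13 and 0.04 at 4, 6, 8 and 10 somites. After thinning to 50000 reads a cell, 1.22% of Sox10-positive cells had a Col1a1 read and 62.6% a Col1a2 read, and without thinning 3.65% and 73.2%. Col4a3 and Col4a4, chains of mature kidney and lung basement membranes, had 74 and 55 reads over all kept cells.

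Shares of cells with a read had the same direction as the levels for the genes that follow. Each cell was thinned to 50000 reads, which 6 kept cells did not reach, and a single read can come from free RNA. Of the 79 members 32 had a read in at least 20% of cells and 13 in at least 50%. Gpc3 had one in 94.7% of cells (exact 95% interval 93.5 to 95.7). Lama4 had one in 53.6% of Sox10-positive cells (49.4 to 57.7), 34.5% of Kdr-positive cells (22.2 to 48.6) and 1.21% of other cells (0.553 to 2.28). Without thinning the Lama4 shares were 64.3%, 40% and 2.26%. Emilin1 was read in 82.3% of Sox10-positive and 9.65% of other cells (84.5% and 11.9% without thinning), and Sdc3 in 85.6% and 17.02% (89.4% and 21.97%). Col18a1 went the other way, with 46.6% and 91.7% (57.6% and 93.5%), as did Sparc with 62.96% and 90.5% (74.1% and 94.1%). Median depth was 391335 reads in Sox10-positive and 386782 reads in other cells.

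Genes that process, modify or bind the matrix were taken from 5 lists. The counts below stand against the shares of all genes given above, 5.33% higher and 5.44% lower for 10 against 4 somites, 3.48% and 7.08% for Sox10-positive, 8.73% and 6.44% for Kdr-positive and 5.66% and 4.47% for Tbx1-positive cells. Of 14 counted genes of collagen processing 3 were 2-fold higher and 0 lower at 10 than at 4 somites, while within plates 0 of 12 were higher at 6 than at 4, 1 of 14 at 8 than at 6 and 0 of 14 at 10 than at 8 somites. The 3 included Serpinh1, the collagen chaperone of the endoplasmic reticulum, at 246.3 against 70.96 RPM. Pcolce, an enhancer of procollagen cleavage, had 47.9 RPM in Tbx1-positive and 3.12 RPM in other cells, where 4 of 14 genes of this list were higher and 0 lower. Of 15 counted genes of heparan sulfate synthesis 2 were higher and 1 lower in Sox10-positive than in other cells. Sulf2, an extracellular sulfatase, had 256.6 against 94.5 RPM and Hs6st1, a 6-O-sulfotransferase, 8.57 against 36.1 RPM. Of 3 counted hyaluronan genes 1 was higher and 1 lower in Kdr-positive cells: Hapln1, which links hyaluronan to versican, had 557.5 against 19.5 RPM, and Cd44, a hyaluronan receptor, 2.99 against 9.91 RPM. Of 10 counted matrix proteases and inhibitors 6 were higher and 1 lower in Kdr-positive cells, with Mmp14 at 238.8 against 57.5 RPM and its inhibitor Reck at 28.4 against 5.10 RPM. Of 3 counted non-integrin matrix receptors 0 were higher and 2 lower in Sox10-positive cells: Ddr1, a collagen receptor, had 7.93 against 42.3 RPM and Bcam, a laminin receptor, 18.71 against 53.4 RPM.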

How the data were processed

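The authors deposited counts: whole, unscaled reads for each gene and cell, per the labels a Smart-Seq2 experiment. Their processing notes list bcl2fastq 2.18, STAR 2.6 and mm10, and the read counter, its annotation and its use of strand are not known from these sources. Each cell is 1 sample, its stage is a label, and the number in its title was read as a plate.

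Cells needed 50000 reads on genes and 1500 genes. Counts were summed by group (Python 3.11.15, numpy 2.4.6, pandas 2.3.3), 0.5 reads were added for log2 ratios of RPM, and intervals are exact (Poisson for levels and ratios, Clopper-Pearson for shares, 95%, scipy 1.17.1). Members with a mean of 5 RPM over both groups were counted, and 2-fold means a log2 ratio of at least 1 in size. A gene near 0 in 1 group is counted only if the other group is high, so it can only count as 2-fold apart. The shares of all genes were counted under the same minimum. A group at 0 reads was set at 3 reads, and no ratio was formed with at most 3 reads on both sides. Cells were sorted singly and no doublet caller was run. Whether the 17.53% of cells positive for several class genes hold doublets or free RNA was not tested. The functions were tested on simulated counts. edgeR 4.0.16 and DESeq2 1.42.0 (R 4.3.3) gave scaling factors only, as alternatives.

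Named are members with 20 RPM at some stage, the 6 largest and 6 smallest ratios per class and the 4 largest and 4 smallest per step within plates among those at 20 RPM, partner chains, and at most 4 genes of each related list. The members, lists and comparisons were chosen with earlier results of these data known. Other names, given where a count is spelled out, were added after their values were seen. Gene positions and exon lengths come from GENCODE vM21, in which 79 of 79 symbols matched.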

Additional observations from a re-analysis of the deposited data

How the results depend on the processing

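No paired analysis was possible because the labels give cells no embryo or replicate number that stages share; ratios within shared plates are in the report. Embryo and plate effects therefore remain in the stage ratios, and the Kdr-positive and Tbx1-positive classes had 55 and 44 cells.

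Keeping Rn45s in the total shifted the median gene by 0.17 for 10 against 4 somites, by -0.32 for 6 against 4 and by 0.16 for Sox10-positive cells, where DESeq2 factors shifted it by 0.11. For 10 against 4 somites, 32 members were higher and 7 lower with no minimum RPM, 11 higher at a mean of 20 RPM, 8 lower chained by way of 8 somites, 11 higher and 1 lower in other cells, and 5 lower with a median of 0.91 in Sox10-positive cells alone, a setting added after the values were seen. Col3a1 reversed to -0.49 and -5.54 along the chains and Lum to -4.89 by way of 8, and in other cells Lama4 stood at -0.59 and Sparc at 0.00886. For 6 against 4 somites, with Rn45s kept 0 were higher and the median was -0.55; 1 was higher with TMM, with DESeq2 factors and relative to the median gene, 0 at 20 RPM, 1 lower by the mean per cell, and 9 higher and 7 lower with no minimum. For 8 against 6 somites, 20 were higher and 7 lower with no minimum and 5 higher at 20 RPM. For 10 against 8 somites, 1 was higher with TMM or DESeq2 factors, 5 higher and 26 lower with a median of -0.53 with no minimum, and 2 lower at 20 RPM.

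For Sox10-positive cells, 4 were lower with Rn45s kept, 5 with TMM, DESeq2 factors or positivity at 1 read, 3 with cells of several classes included, 22 higher and 22 lower with no minimum, 8 higher and 5 lower at 20 RPM, and 8 higher by the median over pools. For Kdr-positive cells the median was 0.94 with DESeq2 factors, 0.23 with no minimum (15 lower), 0.78 with positivity at 1 read, 1.09 with cells of several classes (1 lower) and 1.24 over pools, and 2 were lower with positivity at 50 RPM. For Tbx1-positive cells, 1 was lower with Rn45s kept, by the mean per cell or with cells of several classes, 8 with no minimum, and 17 were higher and 1 lower at 20 RPM. Requiring 3 reads left 19 members in at least 20% of cells in place of 32. Leaving out 1 plate at a time gave 12 to 19 higher and 3 to 4 lower members with medians of 0.45 to 0.80 for 10 against 4 somites, 13 to 14 and 4 to 8 with 0.26 to 0.39 for Sox10-positive, 15 to 19 and 3 to 5 with 0.64 to 0.92 for Kdr-positive, and 23 to 29 and 1 to 3 with 1.20 to 1.78 for Tbx1-positive cells. Without the largest plate of 10 somites 12 members were higher for 10 against 4 somites, 4 lower for Sox10-positive and 1 lower for Tbx1-positive cells. Other alternative values stayed close to those of the report. Beyond what each setting leaves out, the cause was not tested.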
